A study of Arabidopsis thaliana with 12 samples.

Results

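The cysteine-rich receptor-like kinases (CRKs) of Arabidopsis were followed in whole seedlings of wild-type Col-0 exposed for 1 h to hypoxia, to the flagellin peptide flg22 or to both. Genes whose symbol in the count table was CRK followed by a number were taken, and those with a mean of at least 10 reads over the 12 libraries were kept. Of 23396 genes, 39 bore such a symbol and 33 were kept. The symbol is shared by a different family: 31 of the 33 were cysteine-rich receptor-like kinases, and 2 were CDPK-related kinases (calcium-dependent protein kinase relatives), namely CRK1 (AT2G41140) and CRK3 (AT2G46700), which are described apart. All 33 passed the filter on low counts, and 23 had 10 or more reads in every library. The 12 libraries formed 4 conditions of 3 replicates: hypoxia/flg22 (HF), normoxia/flg22 (NF), hypoxia/mock (HM) and normoxia/mock (NM). Seedlings were 10 days old, flg22 was given at 100 nM with water as the mock, hypoxia was applied in anaerojars and normoxia was ambient air. Every condition was wild type, each dish held 5 seedlings, and RNA came from roots and shoots together, so that fewer cells of a type and less RNA per cell cannot be told apart.

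CRKs are a large plant family of receptor-like kinases with an extracellular part made of DUF26 domains, a transmembrane helix and an intracellular serine/threonine kinase. The DUF26 domain holds conserved cysteines and is shared with the plasmodesmata-located proteins (PDLPs), which lack the kinase. CRKs have been linked to immunity and to responses to extracellular reactive oxygen species. Several act beside the flagellin receptor FLS2, its co-receptor BAK1 and the cytoplasmic kinase BIK1, upstream of the NADPH oxidase RBOHD, the main source of the apoplastic oxidative burst after flg22.

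The total count lay between 21307650 and 21554050 in every library. The hypoxia gene LBD41 is a transcriptional regulator of the core hypoxia response. It had 1034, 1932 and 735 CPM (counts scaled to the effective library size) in HF. In HM it had 751, 306 and 689 CPM, against 12.7 to 21.6 CPM in NM. LBD41 was also called up in NF, with 37.8, 155 and 52.7 CPM (log2FC 2.16, edgeR adjusted p = 0.0489). ADH1, another hypoxia gene, had 184, 482 and 113 CPM in HF and 177, 35.1 and 107 CPM in HM. Its levels were 7.49 to 12.4 CPM in NF and 7.95 to 15.3 CPM in NM. CYP81F2, a cytochrome P450 of indole glucosinolate metabolism that responds to flg22, had 661 to 1629 CPM in HF and NF libraries, against 20.9 to 55.9 CPM in NM. FRK1, a receptor-like kinase gene used as a marker of the flg22 response, did not follow: it had 2.25, 11.6 and 17.7 CPM in HF and 2.26, 20.0 and 65.5 CPM in NF, against 0.377, 0.790 and 38.3 CPM in NM, with overlapping libraries (log2 fold change -0.32 and 1.15, edgeR adjusted p = 0.961 and 0.891). The first HM library stood apart: its CYP81F2 level was 352 CPM, against 40.2 and 64.9 CPM in the other HM libraries, and its RBOHD level was 793 CPM, against 60.7 and 125 CPM. Summed markers of shoot (RBCS1A and LHCB1.2) lay between 16463 and 22766 CPM, and those of root (PIN2, COBL9 and EXPA7) between 8.27 and 40.1 CPM, so RNA of both organs was present in every library. The highest root sums were those of the first NF and the first NM library, at 40.1 and 39.4 CPM. The counts of called members are given below without each of these 3 libraries.

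The members were told apart from the CDPK-related kinases by their gene synonyms in the RefSeq annotation. The families also differed in the cysteine motif of the DUF26 domain. In this motif, 8 residues separate the first cysteine from the second and 2 separate the second from the third. In the coding sequences of RefSeq TAIR10.1, matched by gene ID, 30 of the 31 cysteine-rich members held 2 such motifs and CRK27 held 1, whereas CRK1 (AT2G41140) and CRK3 (AT2G46700) held 0. The encoded proteins of the 31 had 627 to 700 residues, with a median of 663. The first motif of 4 members is shown as coding DNA, 5′ to 3′, with the 3 cysteine codons in capitals. CRK19 and CRK20 are shown as the closest relatives by coding identity, and CRK10 and CRK31 as the member with the highest level and the one with the largest response in HF.
CRK10 (chr4:12138456-12138494, plus strand): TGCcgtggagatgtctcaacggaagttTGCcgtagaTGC
CRK19 (chr4:12171379-12171417, plus strand): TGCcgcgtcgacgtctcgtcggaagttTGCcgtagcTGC
CRK20 (chr4:12174992-12175030, plus strand): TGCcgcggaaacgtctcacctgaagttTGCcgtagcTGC
CRK31 (chr4:6967960-6967998, plus strand): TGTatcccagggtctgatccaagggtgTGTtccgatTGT

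WRKY transcription factors, many of which respond to flg22, bind the W-box, whose core is TTGAC. The core was searched on both strands (TTGAC or GTCAA) in the 250 bases before the annotated start of each gene. It was present in 21 of the 31 cysteine-rich members (67.7%), against 44.9% of 27443 promoters of the same length, and 13 members (41.9%) held 2 or more cores, against 14.1%. The GCC box AGCCGCC was in 0 of 31, against 0.587% of all promoters. The following windows are from RefSeq TAIR10.1, 5′ to 3′ on the strand of the gene, with each core in capitals. CRK11, CRK41 and CRK31 are shown as members upregulated in HF with 6, 4 and 3 cores, and CRK20 and CRK19 as close relatives with 2 and 0. CRK22 is shown as the member with the lowest log2 fold change (log2FC) in both flg22 conditions.
CRK11 (chr4:12143859-12144108, minus strand): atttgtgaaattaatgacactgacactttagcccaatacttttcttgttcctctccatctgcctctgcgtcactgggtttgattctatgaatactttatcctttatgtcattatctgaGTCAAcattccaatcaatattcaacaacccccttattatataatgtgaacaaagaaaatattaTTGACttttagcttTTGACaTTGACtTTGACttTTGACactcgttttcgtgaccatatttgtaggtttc
CRK41 (chr4:418077-418326, plus strand): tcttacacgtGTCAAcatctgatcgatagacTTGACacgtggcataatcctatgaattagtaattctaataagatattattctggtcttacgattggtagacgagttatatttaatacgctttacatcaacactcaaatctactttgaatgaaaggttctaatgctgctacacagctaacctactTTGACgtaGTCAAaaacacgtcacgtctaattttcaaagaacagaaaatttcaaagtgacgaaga
CRK31 (chr4:6967459-6967708, plus strand): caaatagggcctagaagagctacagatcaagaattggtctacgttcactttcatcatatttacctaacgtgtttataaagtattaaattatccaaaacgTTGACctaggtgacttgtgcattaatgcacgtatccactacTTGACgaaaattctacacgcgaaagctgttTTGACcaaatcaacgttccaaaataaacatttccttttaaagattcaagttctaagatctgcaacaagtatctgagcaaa
CRK20 (chr4:12174483-12174732, plus strand): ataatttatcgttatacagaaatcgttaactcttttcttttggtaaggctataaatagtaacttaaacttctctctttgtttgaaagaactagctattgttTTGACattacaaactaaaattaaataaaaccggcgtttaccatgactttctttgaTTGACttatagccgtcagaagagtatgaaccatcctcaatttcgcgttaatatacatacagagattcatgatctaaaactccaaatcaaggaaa
CRK19 (chr4:12170705-12170954, plus strand): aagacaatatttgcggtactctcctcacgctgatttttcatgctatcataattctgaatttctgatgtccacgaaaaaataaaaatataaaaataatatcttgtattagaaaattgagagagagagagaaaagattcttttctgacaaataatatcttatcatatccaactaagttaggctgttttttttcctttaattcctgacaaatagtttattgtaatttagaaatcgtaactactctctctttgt
CRK22 (chr4:12181375-12181624, plus strand): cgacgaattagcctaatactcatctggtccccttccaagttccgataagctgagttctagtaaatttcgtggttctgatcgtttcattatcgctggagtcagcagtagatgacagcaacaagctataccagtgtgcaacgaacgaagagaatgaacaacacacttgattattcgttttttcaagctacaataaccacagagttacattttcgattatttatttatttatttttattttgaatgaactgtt
A core did not separate the responding members: of those upregulated in NF, 8 of 12 held a core, and of the other cysteine-rich members 13 of 19 did. CRK19, CRK2, CRK12 and CRK3 (AT1G70530) were upregulated in NF with no core in this window. CRK5, CRK16 and CRK18 held 3 cores each, as CRK31 did, and were called in neither flg22 condition (edgeR without a block on replicate number). A match is a description of the letters and not a binding site.

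The summed level of the 31 cysteine-rich members was higher in every flg22 library than in any mock library. The sum was 1979, 2420 and 1905 CPM in HF and 1303, 2242 and 2203 CPM in NF, against 423, 429 and 661 CPM in NM, with 900, 505 and 805 CPM in HM. CRK10, CRK11, CRK19 and CRK29 carried much of it, with 65.9% of the sum in HF, 60.9% in NF and 48.0% in HM, against 41.7% in NM. Per kb of coding sequence, the highest levels over all libraries were those of CRK10 (114 CPM per kb), CRK19 (98.3) and CRK11 (90.3), followed by CRK29 (88.7) and CRK18 (45.6). The lowest were CRK32 (0.287 CPM per kb), CRK6 (0.293) and CRK15 (0.373). The highest group mean was in NF for 19 of the 33 members, in HF for 8, in NM for 4 and in HM for 2. Within HF, the spread of CRK10 (455 ± 123 CPM), CRK19 (325 ± 65.1 CPM), CRK11 (321 ± 89.8 CPM) and CRK29 (288 ± 52.7 CPM, SD, n = 3 each) left the order of these 4 neighbours unresolved.

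**Figure D1:**
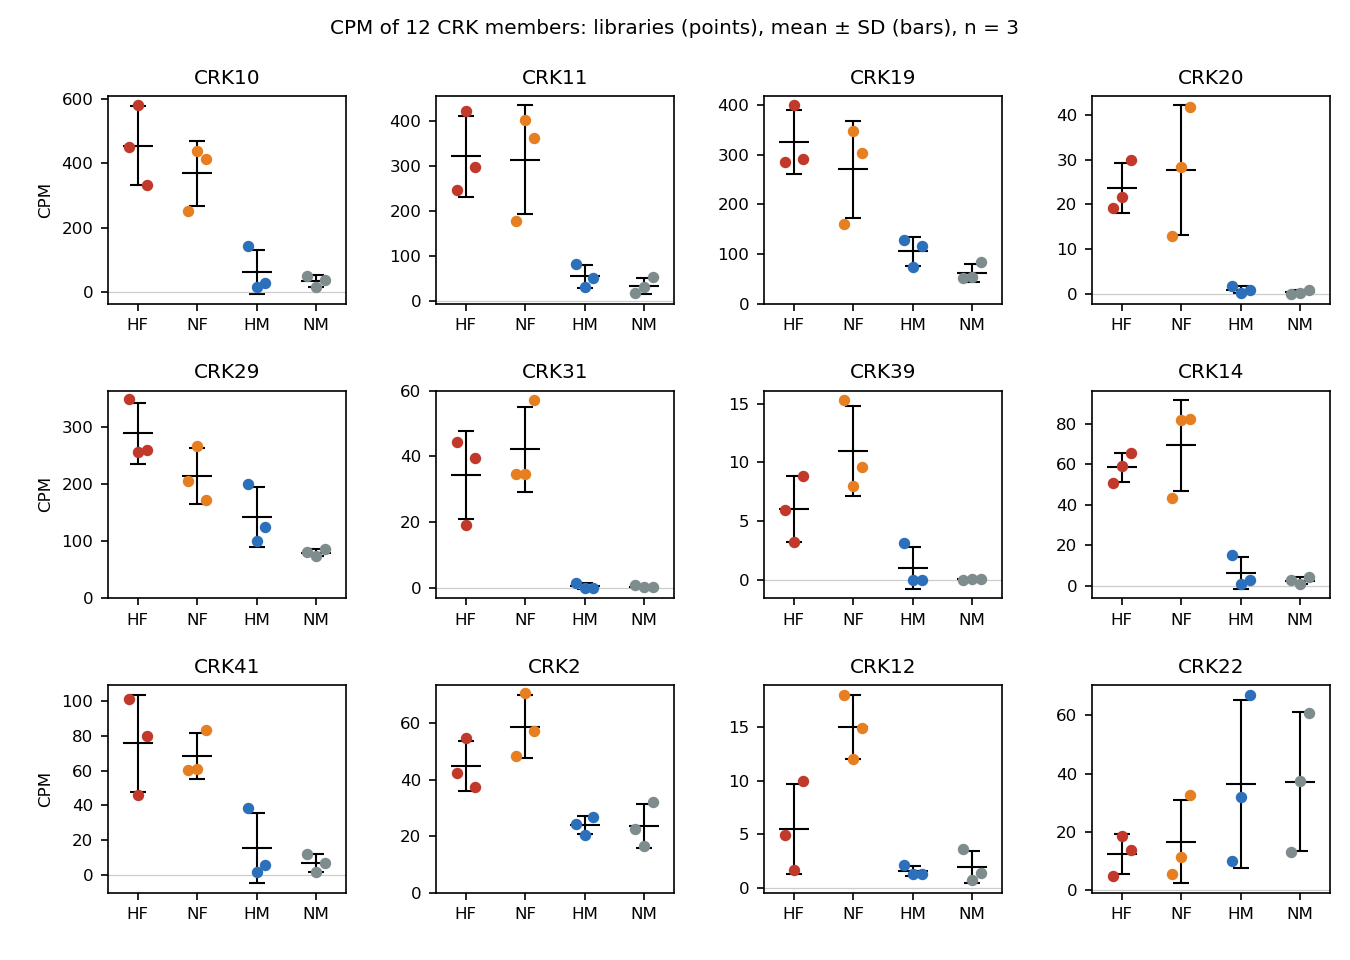
CPM of 12 CRK members (vertical axes, each panel with its own scale) in HF, NF, HM and NM (horizontal axes). Points are libraries and bars are the mean ± SD of 3. HF and NF libraries of CRK10 lay between 251 and 581 CPM, all above the 13.8 to 141 CPM of the mock libraries, and HM replicate 1 is the highest HM point in 10 of the 12 panels.

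The comparison of NF with NM shows the response to flg22 with oxygen present. Of the 33 members, 12 were upregulated and 0 were downregulated (edgeR quasi-likelihood test, Benjamini-Hochberg adjusted p-value under 0.05 over all 20074 genes tested and |log2FC| above 0.585), where 6.43% of all genes were called up and 0.638% were called down. The median log2FC of the members was 1.31, against -0.03 over all genes tested. All 3 NF libraries lay above all 3 NM libraries for 18 of 33 members, against 12.3% of all genes. In a fit that blocked on replicate number, which pairs the NF and NM libraries, 18 members were called up and 1, CRK22, was called down, where 9.08% of all genes were called up. The 6 that joined the upregulated members under the block were CRK6, CRK13, CRK28, CRK34, CRK40 and CRK41. Without NM replicate 2, 7 members were called up, namely CRK2, CRK11, CRK14, CRK19, CRK20, CRK29 and CRK31, where the share of all genes called up fell with it to 4.11%. Without NF replicate 1, 14 members were called up (7.08% of all genes), and without NM replicate 1, 10 were called up (5.26%) and 1, CRK1 (AT2G41140), was called down. Without HM replicate 1, which enters this comparison through the shared estimate of the spread, 13 were called up (6.80%).

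**Figure D2:**
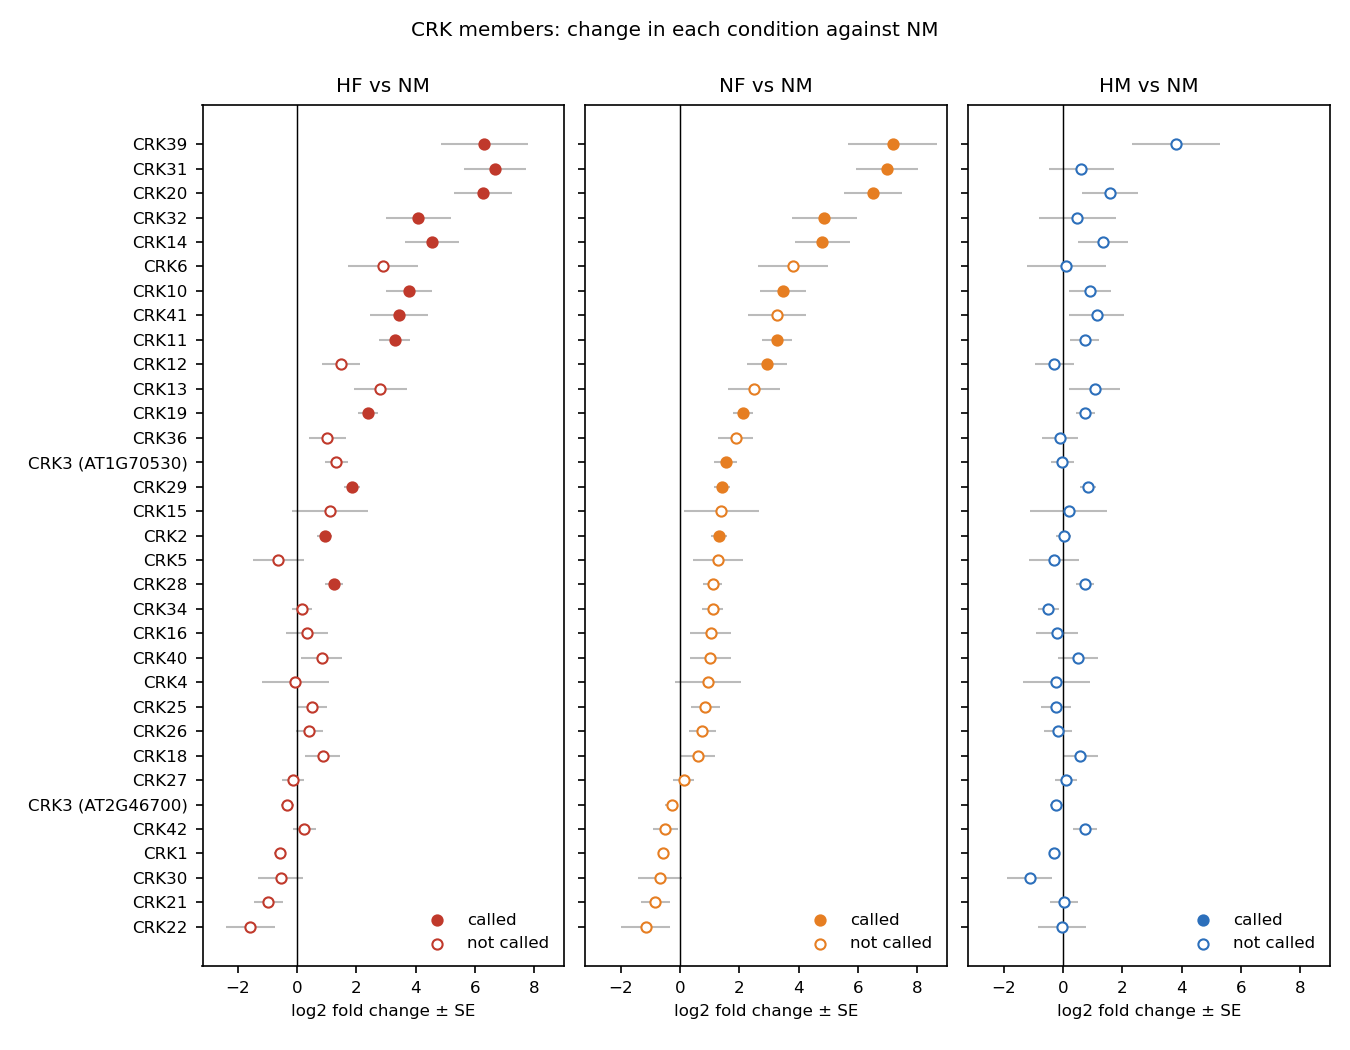
log2FC ± SE of the 33 members (rows) in HF, NF and HM, each against NM (panels, horizontal axes). Filled points passed the test. In HF and in NF 12 members were called, all to the right of 0, and in HM 0 were called. The panels share the NM libraries.

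The members with the largest log2FC in NF were CRK39, CRK31 and CRK20. Their NM levels were under 1 CPM, and a member that low in NM passed the minimum of 10 reads only through other conditions, so the pairing of a low NM level with a large log2FC is set in part by the selection. CRK39 had 15.3, 7.99 and 9.60 CPM in NF, against 0.0377, 0.0929 and 0.0863 CPM in NM, and a log2FC of 7.17 ± 1.49 (SE, edgeR adjusted p = 0.0129). CRK31 had 34.6, 34.8 and 57.2 CPM in NF, against 0.679, 0.139 and 0.129 CPM in NM (log2FC 6.98 ± 1.06, adjusted p = 0.00314). CRK20 had 12.8, 28.4 and 41.7 CPM in NF, against 0, 0.139 and 0.776 CPM in NM (log2FC 6.50 ± 0.98, adjusted p = 0.003). For each of these 3 genes every NF library lay above every NM library. Overexpression of CRK20, as of CRK4, CRK5 and CRK19, is known to cause hypersensitive-like cell death. CRK14 had 43.5, 82.2 and 82.6 CPM in NF, against 2.57, 0.836 and 4.05 CPM in NM (log2FC 4.80 ± 0.93, adjusted p = 0.00916). CRK32 reached only 1.56, 0.619 and 1.92 CPM in NF, against 0.0755, 0 and 0.0431 CPM in NM (log2FC 4.87 ± 1.10, adjusted p = 0.0203).

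The folds of the lowest genes rest on few reads in NM. CRK32 had 89 reads over the 3 NF libraries, against 3 over the 3 NM libraries, a ratio of 33.0 with a 95% exact interval of 10.9 to 163, which covers counting error only. CRK39 had 723 reads in NF, against 5 in NM, a ratio of 161 (68.6 to 497). The fitted log2FC of such genes moved with the left-out library: that of CRK20 was between 5.87 and 8.63 when each library was left out in turn. Its dependence on the prior count of the fit was not tested. In NM, 6 of the 33 members had a mean under 10 reads.

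The highest absolute gains were in CRK10, CRK11 and CRK19, which were already present in mock seedlings. CRK10, whose gain-of-function allele dwarfs plants and activates defence, had 251, 440 and 415 CPM in NF, against 48.9, 13.8 and 37.1 CPM in NM (log2FC 3.47 ± 0.78, edgeR adjusted p = 0.0195). CRK11, whose transcript is known to respond to pathogens and oxidative stress, had 177, 403 and 362 CPM in NF, against 16.6, 29.5 and 52.5 CPM in NM (log2FC 3.26 ± 0.51, adjusted p = 0.00345). The lowest NF library was replicate 1 for both, and it was still far above the highest NM library. CRK19 had 161, 347 and 303 CPM in NF, against 50.6, 53.0 and 83.2 CPM in NM (log2FC 2.12 ± 0.34, adjusted p = 0.00367). CRK29, which forms complexes with CRK28, had 204, 266 and 171 CPM in NF, against 80.7, 72.9 and 85.4 CPM in NM (log2FC 1.42 ± 0.27, adjusted p = 0.00814). None of these 4 genes had overlapping NF and NM libraries.

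The members known to act with the flagellin receptor complex responded unevenly. CRK28, a partner of BAK1 and FLS2 that enhances immune responses when overexpressed, had 38.7, 74.3 and 77.1 CPM in NF, against 25.4, 30.3 and 33.8 CPM in NM, with no overlap (log2FC 1.09 ± 0.31, edgeR adjusted p = 0.0594, not called). CRK36, which associates with BIK1 and FLS2, had 1.40, 1.86 and 1.87 CPM in NF, against 0.528, 0.511 and 0.345 CPM in NM, again with no overlap (log2FC 1.87 ± 0.60, adjusted p = 0.106). CRK6, another FLS2 partner, had 0.946, 1.34 and 2.02 CPM in NF, against 0.0755, 0 and 0.216 CPM in NM (log2FC 3.80 ± 1.18, adjusted p = 0.0925). The counts of CRK6 were not whole in 6 libraries, so its level is uncertain. The NF libraries of these 3 genes were all higher. None passed the edgeR test without the block, CRK28 and CRK6 passed it with the replicate block (adjusted p = 0.0193 and 0.0373, against 0.0663 for CRK36), and DESeq2 on all samples called all 3. CRK4, the remaining FLS2 partner, had 4.48, 0.980 and 1.92 CPM in NF, against 2.19, 0.418 and 1.25 CPM in NM, with overlapping libraries (log2FC 0.93 ± 1.12, adjusted p = 0.835). Of the partners themselves, BAK1, BIK1 and RBOHD were upregulated in NF (log2FC 1.78, 2.00 and 3.89, with edgeR adjusted p = 0.00261, 0.0123 and 0.014). FLS2 was not called by edgeR (log2FC 0.79, adjusted p = 0.086), although its 3 NF libraries all lay above those of NM. DESeq2 on all samples called all 4 partners in NF.

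CRK2, which phosphorylates RBOHD and is needed for a full oxidative burst, changed less in size but with little spread. It had 48.5, 70.7 and 57.1 CPM in NF, against 22.5, 16.5 and 32.0 CPM in NM, and was upregulated (log2FC 1.31 ± 0.26, edgeR adjusted p = 0.00909). Its neighbour on chromosome 1, CRK3 (AT1G70530), had 58.3, 148 and 122 CPM in NF, against 23.6, 34.5 and 55.5 CPM in NM (log2FC 1.53 ± 0.39, adjusted p = 0.0364). In NF replicate 1 the level of CRK3 was only just above the highest NM library. CRK12 had 18.0, 12.0 and 14.9 CPM in NF, against 3.66, 0.743 and 1.42 CPM in NM (log2FC 2.93 ± 0.66, adjusted p = 0.0202). CRK13, whose induced expression is known to raise salicylic acid and resistance to Pseudomonas, had 21.8, 58.6 and 128 CPM in NF, against 2.45, 7.85 and 27.1 CPM in NM (log2FC 2.48 ± 0.88, adjusted p = 0.153). The first NF library of CRK13 lay below the third NM library, and the gene was called with the replicate block (adjusted p = 0.018) and by DESeq2 on all samples, but not in the edgeR fit without the block. Its counts were whole in none of the 12 libraries, so its level is uncertain. CRK41 had 60.5, 60.9 and 83.3 CPM in NF, against 12.3, 1.67 and 7.16 CPM in NM, with no overlap (log2FC 3.27 ± 0.98, adjusted p = 0.0779, not called). CRK5 had 4.24, 2.78 and 3.00 CPM in NF, against 1.55, 0.418 and 2.16 CPM in NM (log2FC 1.28 ± 0.84, adjusted p = 0.556).

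In the combined treatment, HF against NM, 12 of the 33 members were again upregulated and 0 were downregulated, where 7.85% of all genes were called up and 2.59% were called down. Their median log2FC was 1.02, against -0.05 over all genes, and all 3 HF libraries lay above all 3 NM libraries for 14 members, against 14.8% of all genes. The members called were CRK2, CRK10, CRK11, CRK14, CRK19, CRK20, CRK28, CRK29, CRK31, CRK32, CRK39 and CRK41. This comparison shares the NM libraries with that of NF, and the values of each stand side by side in the plot of log2FC. Without NM replicate 2, 7 members were called up, where 5.57% of all genes were. Without NM replicate 1, 7 were called up (6.70% of all genes) and 1, CRK1 (AT2G41140), was called down. Without NF replicate 1, 12 were called up (8.06%), and without HM replicate 1, 11 (7.99%).

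The members with the largest HF responses were CRK31, CRK39, CRK20, CRK14 and CRK32. All but CRK14 had NM means under 1 CPM and passed the minimum of 10 reads only through other conditions. The limit from the selection given for NF thus holds here too. It also bears on their part in the 12 calls and in the median of each flg22 comparison with NM. CRK31 had 44.5, 19.2 and 39.6 CPM in HF, against 0.679, 0.139 and 0.129 CPM in NM (log2FC 6.69 ± 1.05, edgeR adjusted p = 0.0027). CRK39 had 5.99, 3.23 and 8.88 CPM in HF, against NM levels under 0.1 CPM (log2FC 6.31 ± 1.47, adjusted p = 0.0185). CRK20 had 19.2, 21.7 and 29.8 CPM in HF, against 0, 0.139 and 0.776 CPM in NM (log2FC 6.27 ± 0.97, adjusted p = 0.00251). HF replicate 2 was the lowest HF library for CRK31 and CRK39 but not for CRK20. CRK14 had 50.8, 59.2 and 65.5 CPM in HF, against 2.57, 0.836 and 4.05 CPM in NM (log2FC 4.55 ± 0.92, adjusted p = 0.00892). CRK32 had 0.849, 0.340 and 1.2 CPM in HF (log2FC 4.09 ± 1.10, adjusted p = 0.0367), from 48 reads against 3 in NM, a ratio of 19.5 (95% exact interval 6.27 to 97.7).

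Among the abundant members, CRK10 had 451, 581 and 334 CPM in HF, against 48.9, 13.8 and 37.1 CPM in NM (log2FC 3.77 ± 0.79, edgeR adjusted p = 0.0104). CRK11 had 246, 421 and 297 CPM in HF, against 16.6, 29.5 and 52.5 CPM in NM (log2FC 3.29 ± 0.52, adjusted p = 0.00267). CRK19 had 284, 400 and 291 CPM in HF, against 50.6, 53.0 and 83.2 CPM in NM (log2FC 2.39 ± 0.34, adjusted p = 0.00196). Of all members, CRK19 had the lowest adjusted p-value in this comparison. CRK29 had 349, 256 and 259 CPM in HF, against 80.7, 72.9 and 85.4 CPM in NM (log2FC 1.85 ± 0.27, adjusted p = 0.0021). CRK28 had 57.5, 81.2 and 75.1 CPM in HF, against 25.4, 30.3 and 33.8 CPM in NM, and passed the test here (log2FC 1.25 ± 0.31, adjusted p = 0.0234). CRK2 had 42.3, 54.9 and 37.5 CPM in HF, against 22.5, 16.5 and 32.0 CPM in NM (log2FC 0.93 ± 0.25, adjusted p = 0.0402). CRK41, with 101, 45.8 and 80.1 CPM in HF, lay at the threshold (log2FC 3.42 ± 0.98, adjusted p = 0.0497), and CRK3 (AT1G70530), with 73.1, 131 and 80.3 CPM in HF, just missed it (log2FC 1.32 ± 0.39, adjusted p = 0.0522). The other role members were not called: CRK13 had 70.4, 99.5 and 90.8 CPM in HF (log2FC 2.80 ± 0.89, adjusted p = 0.0759), CRK6 had 1.35, 0 and 0.912 CPM (log2FC 2.88 ± 1.18, adjusted p = 0.172), CRK36 had 0.300, 1.59 and 0.960 CPM (log2FC 1.02 ± 0.61, adjusted p = 0.383), CRK5 had 1.60, 0.113 and 0.912 CPM (log2FC -0.64 ± 0.86, adjusted p = 0.786) and CRK4 had 2.00, 0 and 1.68 CPM (log2FC -0.07 ± 1.13, adjusted p = 0.988).

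The calls of 7 members in NF (CRK2, CRK11, CRK14, CRK19, CRK20, CRK29 and CRK31) and of 7 members in HF (CRK10, CRK11, CRK14, CRK19, CRK20, CRK29 and CRK31) held in all 12 fits that left out 1 library. In NF, the call of CRK10 was lost without NF replicate 2 or 3 or NM replicate 2 or 3, those of CRK12 and CRK32 without NF replicate 3 or NM replicate 2 or 3, that of CRK39 without any single NM library, and that of CRK3 (AT1G70530) in 6 of the fits. In HF, the call of CRK39 was lost without any single NM library, that of CRK28 without HF replicate 2 or 3 or any NM library, that of CRK32 in 6 fits, that of CRK2 in 8 and that of CRK41 in 10.

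**Figure D3:**
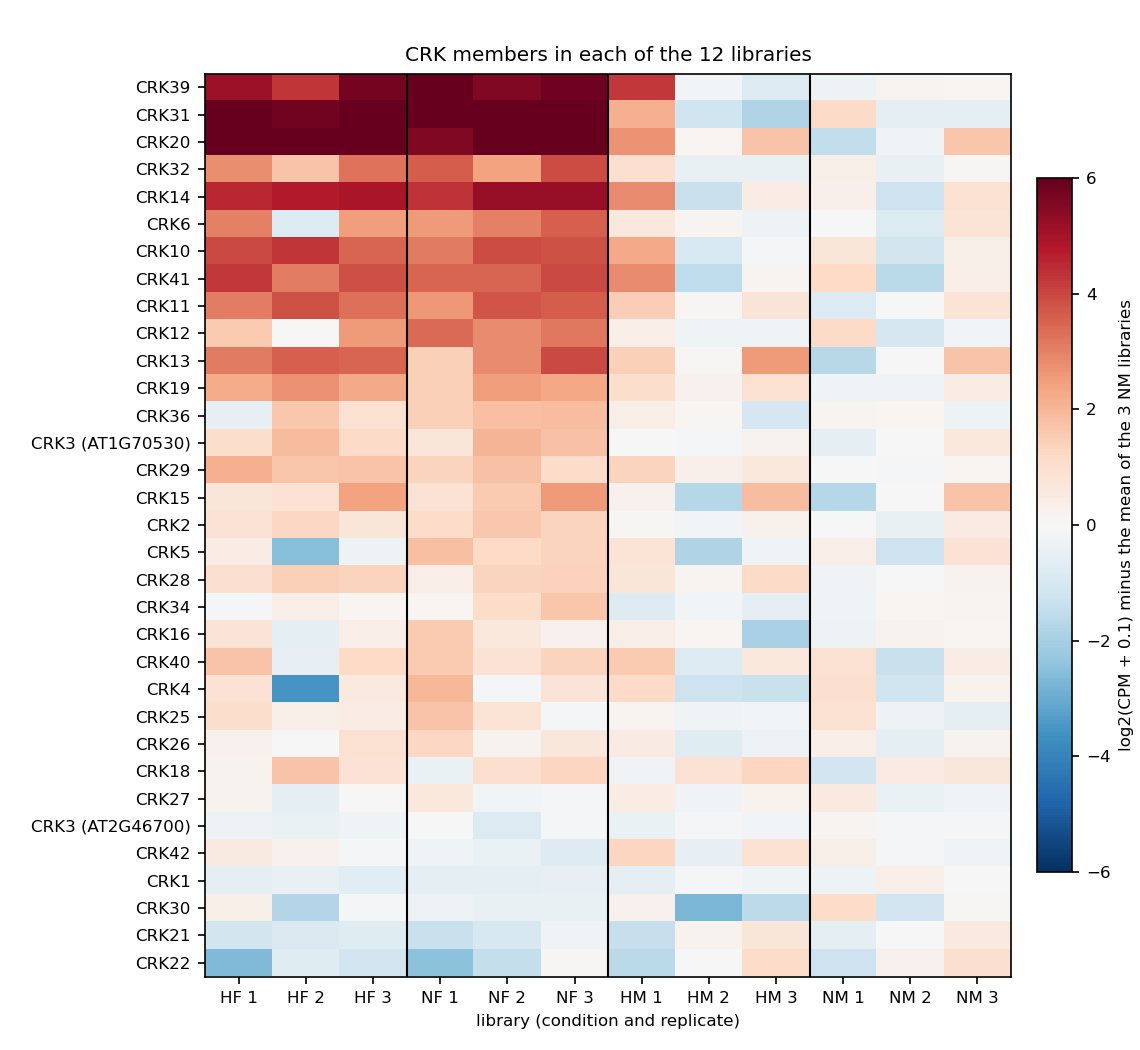
The 33 members (rows, ordered by their log2FC in NF) in the 12 libraries (columns, by condition and replicate). Colour is log2(CPM + 0.1) minus the mean of the 3 NM libraries, from -6 (blue) to 6 (red), with values outside shown at the limits. The upper rows are red in the 6 flg22 libraries and, more faintly, in HM replicate 1.

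Hypoxia alone, HM against NM, called 0 of 33 members with edgeR, where it called 0% of all genes. DESeq2 on all samples also called 0 members, where it called 143 of 23396 genes up (0.611%) and 18 down. At an unadjusted p-value under 0.05 there were 4 members (CRK19, CRK28, CRK29 and CRK39), all higher in HM, against 5.93% of all genes. The median log2FC of the members was 0.11, against 0.01 over all genes. CRK29 had 200, 99.8 and 125 CPM in HM, against 80.7, 72.9 and 85.4 CPM in NM, and was the only member whose 3 HM libraries all lay above NM (5.54% of all genes), with a log2FC of 0.83 ± 0.27 (edgeR adjusted p = 0.61). CRK19 had 127, 72.5 and 115 CPM in HM, against 50.6, 53.0 and 83.2 CPM in NM (log2FC 0.75 ± 0.33, adjusted p = 0.813). CRK28 had 49.0, 32.9 and 66.4 CPM in HM, against 25.4, 30.3 and 33.8 CPM in NM (log2FC 0.73 ± 0.30, adjusted p = 0.787). None of these differences held up against the spread once all genes tested were accounted for.

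The fourth, CRK39, came from a single library. It had 3.13, 0.0502 and 0 CPM in HM, against 0.0377, 0.0929 and 0.0863 CPM in NM (log2FC 3.82 ± 1.49, edgeR adjusted p = 0.746), and without HM replicate 1 the log2FC was -1.36 (adjusted p = 0.733). HM replicate 1 was also far above the other HM libraries for CRK10 (141, against 15.6 and 27.9 CPM), CRK41 (38.7, against 1.81 and 5.89 CPM), CRK14 (15.3, against 0.753 and 2.88 CPM) and CRK31 (1.42, against 0.0502 and 0 CPM). Those are members that respond to flg22, and the same library was high in CYP81F2 and RBOHD. Without it, the log2FC in HM was -0.61 for CRK10, -0.87 for CRK41 and -0.44 for CRK14, against 0.89, 1.13 and 1.35 with it, and the median of the 33 members was -0.19. The origin of the difference between HM replicate 1 and the other HM libraries was not tested.

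The response to flg22 within hypoxia, HF against HM, called 4 of 33 members up and 0 down, where 3.84% of all genes were called up and 0.543% were called down. The median log2FC was 0.90, against -0.02 over all genes. CRK31 had 44.5, 19.2 and 39.6 CPM in HF, against 1.42, 0.0502 and 0 CPM in HM (log2FC 6.08 ± 1.01, edgeR adjusted p = 0.013). CRK20 had 19.2, 21.7 and 29.8 CPM in HF, against 1.67, 0.201 and 0.810 CPM in HM (log2FC 4.69 ± 0.87, adjusted p = 0.0177). CRK11 had 246, 421 and 297 CPM in HF, against 81.6, 30.8 and 50.2 CPM in HM (log2FC 2.57 ± 0.50, adjusted p = 0.0208), and CRK19 had 284, 400 and 291 CPM in HF, against 127, 72.5 and 115 CPM in HM (log2FC 1.63 ± 0.33, adjusted p = 0.0236). In all 4 the lowest HF library was above the highest HM library. Others with no overlap missed the threshold: CRK10 (log2FC 2.88 ± 0.76, adjusted p = 0.0591), CRK29 (1.02 ± 0.27, adjusted p = 0.0593), CRK14 (3.20 ± 0.86, adjusted p = 0.065) and CRK2 (0.90 ± 0.25, adjusted p = 0.0738). The count depended on single libraries. Without HM replicate 1, 10 members were called (CRK10, CRK11, CRK14, CRK19, CRK20, CRK29, CRK31, CRK32, CRK39 and CRK41), where 5.68% of all genes were called up, and the median log2FC was 1.33. Without HM replicate 2, HM replicate 3 or HF replicate 3 the number was 0, and without HF replicate 2 it was 1. The shares of all genes called in these fits are not given here, so the drops cannot be assigned to the members in particular.

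The effect of hypoxia on seedlings given flg22 was read from HF against NF. No member was called with edgeR, which called 0% of all genes, or with DESeq2 on all samples, which called 82 of 23396 genes up (0.350%) and 32 down. With edgeR, 2 members had an unadjusted p-value under 0.05, against 4.94% of all genes. Both were lower in HF. CRK34 had 5.94, 8.17 and 6.72 CPM in HF, against 6.66, 13.4 and 19.7 CPM in NF (log2FC -0.93 ± 0.34, edgeR adjusted p = 0.847), and CRK12 had 4.89, 1.64 and 9.98 CPM in HF, against 18.0, 12.0 and 14.9 CPM in NF (log2FC -1.43 ± 0.62, adjusted p = 0.974). All 3 HF libraries lay below all 3 NF libraries for CRK12 and for CRK5, that is for 2 of 33 members, against 5.22% of all genes. CRK5 had 1.60, 0.113 and 0.912 CPM in HF, against 4.24, 2.78 and 3.00 CPM in NF (log2FC -1.92 ± 0.87, adjusted p = 0.996). The log2FC was below 0 for 23 of 33 members, with a median of -0.25, against -0.01 over all genes. The most abundant members were not lower: CRK10 averaged 455 ± 123 CPM in HF and 369 ± 103 CPM in NF, CRK19 325 ± 65.1 CPM in HF and 271 ± 97.4 CPM in NF, and CRK29 288 ± 52.7 CPM in HF and 214 ± 48.6 CPM in NF (SD, n = 3 each), with overlapping libraries for each.

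The interaction asks whether flg22 acted differently with and without oxygen, as the change of HF over HM less the change of NF over NM. It called 0 of 33 members with edgeR and with DESeq2, where edgeR called 0% of all genes. At an unadjusted p-value under 0.05 there was 1 member, CRK39, against 1.13% of all genes. Its interaction was -4.68 ± 1.82 (edgeR adjusted p = 1.0), and it was 0.50 without HM replicate 1. The estimate was below 0 for 30 of 33 members, with a median of -0.49, against -0.01 over all genes. Without HM replicate 1 it was below 0 for 19 of 33, with a median of -0.19. For CRK10 the interaction was -0.58 ± 1.00 with all libraries and 0.92 ± 0.66 without HM replicate 1.

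Most CRKs lie on chromosome 4, which held 27 of the 33 members. The largest array runs from CRK5 (AT4G23130) to CRK24 (AT4G23320) at chr4:12117491-12191704 in TAIR10.1, a stretch of 74.2 kb with 18 of the 39 symbol matches, of which 14 were kept. Neighbours in the array differed in level and response. CRK10, CRK11 and CRK19 had 16.4 to 32.0 CPM per kb in NM and were upregulated in both flg22 conditions. CRK5, CRK6, CRK15 and CRK16 had 0.0475 to 0.688 CPM per kb in NM and were called in neither by edgeR without the block. The NM level did not separate the responding members. CRK20 (0.152 CPM per kb in NM) and CRK14 (1.26) were upregulated in both conditions. CRK18 (31.4), CRK22 (18.7) and CRK21 (12.7) were upregulated in neither by edgeR without the block. Of the 14, 6 were called in NF (CRK10, CRK11, CRK12, CRK14, CRK19 and CRK20), where 6.43% of all genes were called up. In HF 5 were called (the same without CRK12), where 7.85% of all genes were called up. EP1 (AT4G23170) and EMB1290 (AT4G23250), whose loci lie in this range, bear other symbols and are not counted here. CRK21 and CRK22, which lie head to head near its end, had a log2FC below 0 in both conditions.

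**Figure D4:**
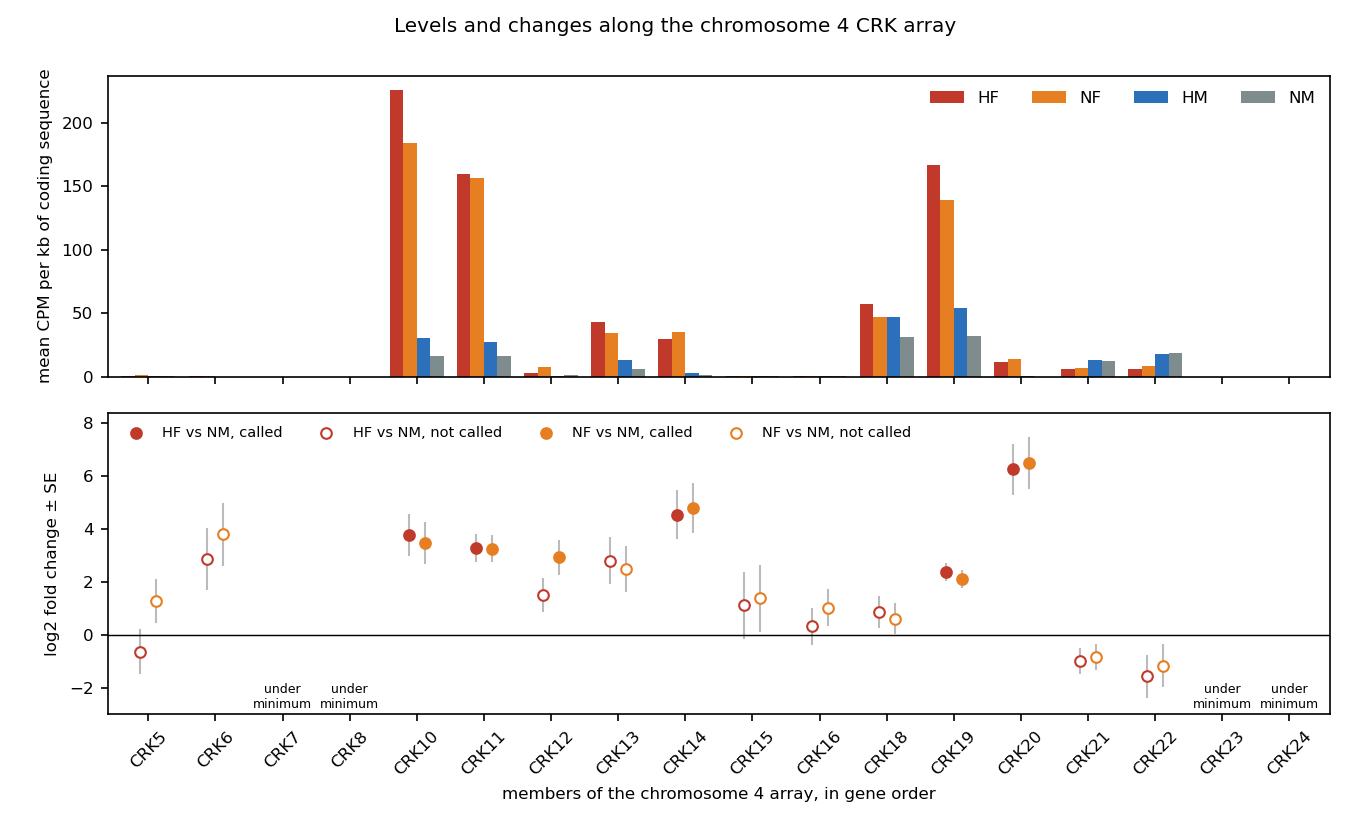
The 18 CRK symbol matches of the chromosome 4 array in gene order (horizontal axis). The upper panel gives mean CPM per kb of coding sequence in HF, NF, HM and NM (n = 3), and the lower panel the log2FC ± SE in HF and in NF against NM, filled where called. CRK20 has the highest log2FC of the array, 6.27 in HF and 6.50 in NF, with 0.152 CPM per kb in NM.

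CRK22 had 4.89, 18.5 and 13.9 CPM in HF and 5.64, 11.3 and 32.7 CPM in NF, against 13.1, 37.4 and 60.9 CPM in NM. In each condition the first replicate was the lowest, and the groups overlapped. At each replicate number, the HF and NF libraries lay below that of NM. The log2FC was -1.58 ± 0.83 in HF (edgeR adjusted p = 0.314) and -1.17 ± 0.82 in NF (adjusted p = 0.596). With the replicate block, CRK22 was called lower in NF (edgeR adjusted p = 0.0226) and in HF, both against NM. The block also called it lower in HF against HM (log2FC -1.31, adjusted p = 0.0261). It was called in none of these without the block or with DESeq2 on all samples. The counts of CRK22, like those of CRK13, its closest relative by coding sequence (80.4% identity), were whole in none of the 12 libraries, so its values are uncertain. CRK21 had 11.6, 13.5 and 15.0 CPM in HF, all below the 16.3, 25.3 and 37.4 CPM in NM (log2FC -0.98 ± 0.49, adjusted p = 0.277), and 9.92, 12.8 and 21.4 CPM in NF (log2FC -0.84 ± 0.48, adjusted p = 0.465).

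Close relatives by coding sequence differed in their mock levels. CRK19 and CRK20 share 90.2% of aligned coding bases and are adjacent on the same strand. Per kb of coding sequence, CRK19 had 32.0 CPM per kb and CRK20 0.152 CPM per kb in NM. CRK31 and CRK32 (87.5% identity) had 0.157 and 0.0200 CPM per kb in NM. CRK39 and CRK40 (87.3%) had 0.0365 and 10.6 CPM per kb in NM. The expected counts of CRK19, CRK20, CRK31 and CRK32 were whole in every library, whereas those of CRK39 and CRK40 were not whole in 8 libraries each, a mark of reads shared between genes in the authors' counting, and their values are uncertain for that reason. CRK40 had 57.7, 12.3 and 40.3 CPM in HF and 51.2, 31.5 and 43.5 CPM in NF, against 32.3, 6.92 and 23.3 CPM in NM, with overlap (log2FC 0.82 ± 0.69 and 1.01 ± 0.69, edgeR adjusted p = 0.594 and 0.574). CRK28 and CRK29 (86.9%) overlap by 470 bases on the same strand and had values that were not whole in 11 libraries each, so their separate levels are also uncertain. The ends of CRK10 and CRK11 overlap by 32 bases on opposite strands, and CRK16 overlaps with AT4G23250 by 1190 bases on the same strand; the use of strand in the counting is not given in the sources used here.

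The replicate number moved some members in every condition. Replicate 1 was the highest of the 3 libraries in all 4 conditions for 6 of 33 members (CRK4, CRK25, CRK27, CRK30, CRK40 and CRK42), where 14.7% of all genes did so, and the lowest in all 4 conditions for 4 members (CRK18, CRK21, CRK22 and CRK34), where 12.9% of all genes did so. These shares are near those of all genes. CRK18 shows the size of it, with 62.6, 175 and 99.9 CPM in HF, 40.6, 110 and 131 CPM in NF and 45.9, 98.1 and 133 CPM in HM, against 24.1, 74.9 and 87.2 CPM in NM. Its groups overlapped, and the log2FC was 0.86 ± 0.59 in HF and 0.60 ± 0.59 in NF (edgeR adjusted p = 0.477 and 0.769). At each replicate number, however, the HF, NF and HM libraries lay above that of NM. With the replicate block, CRK18 was called higher in HF against NM. It was not called in NF (log2FC 0.62 ± 0.23, edgeR adjusted p = 0.115), nor in HF with DESeq2 on all samples. The counts of CRK18 were not whole in 7 libraries, so its values are uncertain. Root marker sums of the first replicate were the highest of their condition in NF, HM and NM but not in HF, and their part in these members was not tested.

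The 2 CDPK-related kinases had no positive response to flg22. CRK1 (AT2G41140) had 24.4, 26.5 and 22.7 CPM in HF and 24.6, 24.5 and 25.7 CPM in NF, all below the 29.1, 46.1 and 35.6 CPM in NM. The log2FC was -0.59 ± 0.18 in HF (edgeR adjusted p = 0.0676) and -0.57 ± 0.18 in NF (adjusted p = 0.106), not called; with scaling by library size alone it was called lower in both. CRK3 (AT2G46700) had 8.04, 7.49 and 8.45 CPM in HF and 10.1, 5.62 and 9.15 CPM in NF, against 11.2, 9.62 and 9.40 CPM in NM (log2FC -0.34 ± 0.22 and -0.28 ± 0.22, adjusted p = 0.44 and 0.65).

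The 6 matches under the minimum were CRK7, CRK8, CRK23, CRK24, CRK37 and CRK38. The most reads that any library held was 22 for CRK24, 21.9 for CRK8, 15 for CRK23, 6 for CRK7, 5 for CRK37 and 3 for CRK38. CRK7, which mediates responses to extracellular oxidants together with CRK6, was at 0 reads in 7 of the 12 libraries. The remaining members not described above, CRK15, CRK16, CRK25, CRK26, CRK27, CRK30 and CRK42, were called in none of the 6 comparisons with edgeR, with log2FC between -0.56 and 1.11 in HF and between -0.69 and 1.38 in NF.

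Related genes outside the symbol rule give the setting. ARCK1 (AT4G11890), EP1 (AT4G23170) and EMB1290 (AT4G23250), whose other names are CRK45, CRK9 and CRK17, were all upregulated in NF and in HF. ARCK1 had 30.6, 55.4 and 46.3 CPM in HF and 22.2, 56.9 and 51.5 CPM in NF, against 0.906, 1.53 and 4.74 CPM in NM (log2FC 4.20 and 4.18, edgeR adjusted p = 0.0091 and 0.0119). The PDLP genes share the DUF26 domain but have no kinase. Those with PDLP and a number as symbol were tested, namely PDLP1 to PDLP4 and PDLP6 to PDLP8. Family members under other symbols were not sought. Of these 7 tested genes, 0 were called in any comparison with edgeR, with a median log2FC of 0.09 in HF and 0.29 in NF. At the shares of all genes called up (7.85% in HF and 6.43% in NF), a count of 0 among 7 genes is near the background. At an unadjusted p-value under 0.05 there were 2 in HF against NM (PDLP1 and PDLP7) and 1 in HF against HM (PDLP1). DESeq2 called PDLP1 in those comparisons and no other gene of the 7. PDLP1 was lower in every HF library than in any NM library, with 0.350, 0 and 0.240 CPM in HF, against 0.943, 1.44 and 0.949 CPM in NM (log2FC -2.44, adjusted p = 0.0888).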

How the data were processed

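RNA-seq was carried out on polyA RNA of 12 whole-seedling samples, 3 per condition, and samples were assigned from their titles. Reads were cleaned with SOAPnuke and mapped with HISAT by the authors, whose table gives expected counts of 23396 genes with no normalization. The processing notes name TAIR10 and DESeq2; the counting tool, the annotation and the use of strand are not given in the sources used here. The deposited group means were not used. The expected counts, 2.3% of which were not whole (tolerance 1e-06), were rounded; the tests had been set for whole counts. Totals were 21307650 to 21554050, and depth was a limit for genes with few reads alone.

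Counts were scaled with TMM factors, and edgeR 4.0.16 (R 4.3.3, quasi-likelihood) was fitted once to 4 group means. Genes passed filterByExpr at a minimum count of 10 (20074 genes). Genes were called at a p-value under 0.05 after Benjamini-Hochberg adjustment over all 20074 with a |log2FC| above 0.585 (1.5-fold), the study's cutoffs. The p-values measure the spread between these samples. The fits were tested on simulated data. Alternatives were DESeq2 1.42.0, other scalings and filters, no log2FC cutoff, a block on replicate number and each library left out. Same-numbered libraries deviated together in NF with NM (r from 0.314 to 0.772 over 3 pairs) and HM with NM (0.264 to 0.681). The numbers pair these. HF replicates 1 and 2 also deviated with their same-numbered libraries (r from 0.425 to 0.583). HF replicate 3 did not (-0.111 with NF, -0.047 with HM and -0.009 with NM), so the numbers pair the HF libraries in part. The common biological coefficient of variation was 0.362 without the block and 0.237 with it. Sequences were read from RefSeq TAIR10.1 by gene ID, for which 23396 of 23396 IDs matched; the count table holds no coordinates. Python 3.11.15, pandas 2.3.3, scipy 1.17.1, Biopython 1.88 and matplotlib 3.10.9 were used.

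Members and lists were chosen with earlier results of these data known. Named with values were members with a known role, up to 5 called members with the largest change in each direction per comparison, members with an unadjusted p-value under 0.05 in HM against NM or in the interaction, the 3 with the highest level per kb, and the CDPK-related kinases; CRK3 (AT1G70530), CRK12, CRK18, CRK21, CRK22, CRK34, CRK40, CRK41 and PDLP1 were named after their values were seen.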

Additional observations from a re-analysis of the deposited data

How the results depend on the processing

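No member was called in HM against NM, HF against NF or the interaction under any alternative run. In NF against NM 12 members were called, where 6.43% of all genes were called up. The number was 19 with the replicate block (18 higher and 1 lower, 9.08% of all genes up) and 18 with DESeq2 on all samples (7.06%). It was 7 to 14 when each library was left out, with 7 without NM replicate 2 (4.11%) and 14 without NF replicate 1 (7.08%). In HF against NM 12 were called (7.85% of all genes up), and 7 to 12 when each library was left out, with 7 without NM replicate 2 (5.57%). Among the 23 members with at least 10 counts in every sample, 8 were called in NF and 9 in HF, both against NM. Their median log2FC was 1.1 in NF and 0.86 in HF. The shares of all genes under this filter are not given here. HF against HM was the least stable in the number of calls. There 4 members were called (3.84% of all genes up), against 2 among the 23 with at least 10 counts in every sample. The number was 12 with the replicate block (11 higher and 1 lower, 7.05% of all genes up) and 10 with DESeq2 on all samples (5.45%). It was 10 with DESeq2 on the 2 groups. It was 0 to 10 when each library was left out (share of all genes at 0 not given here), with 10 without HM replicate 1 (5.68%). The share of all genes called up thus rose with the block, with DESeq2 on all samples and without HM replicate 1. The block gave 16 in HF against NM (15 higher and 1 lower, where 11% of all genes were called up). It gave 0, as without it, in the other 3 comparisons. In the comparisons with HF, the counts of the block rest on numbers that paired HF replicates 1 and 2 but not HF replicate 3. Without HM replicate 1, CRK39 turned to -1.36 in HM against NM and to 0.50 in the interaction, because its reads in HM came from that library; leaving out each library gave -1.36 to 4.40 and -5.26 to 0.50. Scaling by library size alone moved the median log2FC of all genes in HF against NM to -0.32, against -0.05 with TMM. That of the members moved to 0.71, and 10 members were called, 9 of them higher, where 6.42% of all genes were called up. The cause of the other shifts was not tested. Depth limited CRK32, CRK6 and CRK39, which had 3 to 7 reads over the 3 NM libraries.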
